A study of Homo sapiens and Mus musculus with 25 samples.

Results

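The promoters described here each serve 2 protein-coding genes that are transcribed away from each other. They were found in the GENCODE release 44 annotation of the human genome (build hg38, chromosomes 1 to 22) as coding genes on opposite strands whose canonical transcription start sites (TSSs) point outwards and lie 1 to 1000 bases apart. This gave 957 pairs, which hold 1842 distinct genes, or 9.64% of the 19111 coding genes annotated on these chromosomes. The pairs overlap in part, since 71 genes stand in more than 1 pair. Dropping each pair that shared a gene or TSS with a pair already kept left 887. The spacing of the paired TSSs ran from 11 to 1000 bases with a median of 233 and quartiles of 121 and 401. At the limit of the rule, 15 pairs lay 951 to 1000 bases apart and 10 pairs, not included, lay 1001 to 1050 bases apart. The comparison group was 15111 one-way promoters, which have no other coding TSS within 5 kb, and the remaining 2158 coding genes belong to neither set.

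Genes in such a head-to-head arrangement share a short stretch of DNA from which RNA polymerase II sets out in both directions. Paired promoters are known to be rich in CpG islands and poor in TATA boxes, and many drive housekeeping genes of DNA repair, mitochondria and the nucleosome. Lysine 4 of histone H3 (H3K4) carries 3 methyl groups (H3K4me3) on the nucleosomes next to active start sites, 1 (H3K4me1) at enhancers and on the outer flanks of promoters, and 2 (H3K4me2) in between.

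All data came from K562, an established leukaemia line with erythroid features, grown untreated. The assay, internally calibrated ChIP-seq, adds barcoded semi-synthetic nucleosomes of known modification to the chromatin before the pull-down, so that recovery at a locus can be scaled to them. Peak lists of 17 antibodies were used, with 5 H3K4me1, 4 H3K4me2 and 8 H3K4me3 antibodies, together with 3 lists that the authors corrected for off-target capture and 1 list each for H3K9me3 and H3K27me3. Each antibody gave 1 list, so antibodies are the replicates, and no labels name separate cultures.

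The K562 label was checked on promoter peaks of marker genes. Of 8 erythroid markers, 5 (TAL1, LMO2, NFE2, TFRC and KLF1) had a peak in at least 5 of the 8 H3K4me3 lists, as did 0 of 5 lymphoid, 0 of 4 liver and 0 of 2 neural markers. List length ran from 38965 to 594435 peaks for H3K4me1, from 106286 to 469461 for H3K4me2 and from 13128 to 718656 for H3K4me3. Sequencing depth is unknown for peak lists, and a promoter without a listed peak is not shown to lack the mark. The 2 H3K4me3 libraries run beside the input named AR17 (Diagenode C15410003 and EpiGentek A-4033-050) stood apart from the other 6 with fewer marked pairs. The main H3K4me3 results are therefore also given without them. Chromosomes 13 and 14 hold 59 of the pairs and were thinly covered in most lists, which put 0.411% to 5.68% of their peaks there. Active Motif 39635 marked 3.39% of these 59 pairs and 81.0% of the others, and the 2 AR17 lists marked 35.6% and 45.8%, against 71.9% and 78.3% of the others. Not every list was low there: Abclonal A2357 marked 93.2% of the 59 pairs and 94.3% of the others, and EMD Millipore 05-1338 96.6% and 96.5%. A missing peak on these chromosomes therefore says little about a pair in the lists that marked fewer pairs there.

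The DNA between the start sites is printed for 7 well-studied pairs whose TSSs lie 50 to 300 bases apart, to show how little sequence the paired genes share and what it holds. Each line runs 5′ to 3′ on the plus strand of hg38, from the base after the TSS of the leftward gene to the base before the TSS of the rightward gene. Capitals mark CCGGAAG (the ETS motif), CCAAT (bound by NF-Y), TATAAA (the TATA box) and the longer NRF1 and YY1 motifs, searched on both strands as exact letters.
SURF1/SURF2, chr9:133356488-133356549: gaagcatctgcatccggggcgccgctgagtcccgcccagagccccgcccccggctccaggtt
HARS1/HARS2, chr5:140691371-140691454: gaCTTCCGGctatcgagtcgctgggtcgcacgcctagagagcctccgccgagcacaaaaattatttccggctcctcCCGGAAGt
ZAR1L/BRCA2, chr13:32315364-32315507: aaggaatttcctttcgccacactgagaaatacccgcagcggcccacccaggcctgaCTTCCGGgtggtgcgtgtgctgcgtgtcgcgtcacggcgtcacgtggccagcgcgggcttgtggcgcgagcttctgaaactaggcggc
SARS2/MRPS12, chr19:38930764-38930943: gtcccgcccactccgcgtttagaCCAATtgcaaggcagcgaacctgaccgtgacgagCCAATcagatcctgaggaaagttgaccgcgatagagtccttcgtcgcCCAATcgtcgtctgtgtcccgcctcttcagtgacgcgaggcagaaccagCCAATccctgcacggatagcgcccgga
POLR3K/SNRNP25, chr16:53609-53827: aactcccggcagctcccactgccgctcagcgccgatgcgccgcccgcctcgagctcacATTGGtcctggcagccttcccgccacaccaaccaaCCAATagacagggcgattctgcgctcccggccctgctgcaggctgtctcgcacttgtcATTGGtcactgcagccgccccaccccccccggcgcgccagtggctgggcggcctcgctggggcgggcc
MCM7/AP4M1, chr7:100101398-100101642: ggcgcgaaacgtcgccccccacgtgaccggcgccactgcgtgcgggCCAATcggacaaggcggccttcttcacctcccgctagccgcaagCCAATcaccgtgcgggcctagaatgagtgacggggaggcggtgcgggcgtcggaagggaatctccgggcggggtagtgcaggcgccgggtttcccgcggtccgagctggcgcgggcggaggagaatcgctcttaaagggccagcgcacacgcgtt
COL4A1/COL4A2, chr13:110307158-110307283: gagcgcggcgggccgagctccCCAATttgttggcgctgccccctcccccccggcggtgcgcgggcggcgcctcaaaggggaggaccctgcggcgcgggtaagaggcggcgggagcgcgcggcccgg

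These stretches span 62 bases in SURF1/SURF2 to 245 bases in MCM7/AP4M1. Their GC content ran from 59.5% in HARS1/HARS2, which encode the cytosolic and mitochondrial histidyl-tRNA synthetases, to 80.2% in COL4A1/COL4A2, the genes of 2 basement membrane collagen chains. HARS1/HARS2 held 2 ETS motifs, 1 on each strand, and SARS2/MRPS12, which pairs mitochondrial seryl-tRNA synthetase with a mitochondrial ribosomal protein, held 4 CCAAT boxes. None of the 5 motifs was found in SURF1/SURF2, whose first gene encodes a cytochrome c oxidase assembly factor.

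The same features were counted over all members. A CpG-rich centre (observed to expected CpG of at least 0.6 and GC of at least 50% over 1 kb) was present in 93.2% of pairs, 63.0% of one-way promoters and 65.4% of all coding promoters. In windows of 501 bases the ETS motif stood in 37.3% of pairs, 14.5% of one-way promoters, 19.6% of CpG-rich one-way promoters and 16.9% of all coding promoters. The YY1 motif stood in 6.37% of pairs and 2.12% of one-way promoters, the NRF1 motif in 3.76% and 1.62%, and the CCAAT box in 50.8% and 42.2%. TATAAA went the other way, with 6.48% of pairs against 12.8% of one-way promoters, although among CpG-rich promoters alone the values were 6.05% and 5.28%. Pair windows are centred between the TSSs and one-way windows on the TSS, so these shares describe letters in a window and not binding.

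The first comparison asked how often a promoter was marked, taking a core of 1 kb either side of the midpoint of a pair or of a one-way TSS. A pair core holds the TSSs of both genes, whereas a one-way core holds no coding TSS but its own. A peak at either gene therefore counts the pair as marked, here and in every later share of marked pairs. The part of this in the excess of pairs was not tested. H3K4me3 was the mark in which pairs and one-way promoters lay furthest apart. An H3K4me3 peak touched 87.7% ± 9.35 of pair cores (SD, n = 8 antibodies) and 51.3% ± 15.0 of one-way cores. Over the 8 lists the share ran from 69.7% through a median of 91.5% to 94.5% in pairs and from 29.2% through 51.1% to 75.1% in one-way promoters. Pairs were higher in each of the 8 lists, by 16.2 (Abcam ab8580) to 44.4 points (Abcam ab12209), with a mean of 36.4 points, although the ranges of the groups overlapped. An exact sign-flip permutation test over the antibodies gave p = 0.0078, the smallest it can give, and an adjusted p of 0.0195 over the 20 tests made.

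For H3K4me2 the pair shares were 92.6% with Abcam ab7766, 96.8% with Cell Signaling Technologies 9725, 96.6% with EMD Millipore 05-1338 and 93.1% with Thermo Fisher 710796. The one-way shares in the same order were 76.5%, 85.2%, 64.6% and 72.7%, so that pairs were higher in 4 of 4 lists and the ranges did not overlap. For H3K4me1 the pair shares were 92.2% with Abcam ab8895, 76.2% with Active Motif 39635, 92.3% with Cell Signaling Technologies 5326 BF, 97.2% with EpiGentek A-4031-050 and 93.5% with Thermo Fisher 710795. The one-way shares were 75.9%, 73.1%, 81.6%, 84.1% and 77.1%, lower in 5 of 5 lists, by as little as 3.08 points with Active Motif 39635. With 4 or 5 antibodies the exact permutation test cannot go below p = 0.125 or 0.0625, which were the values found, so neither could pass. The excess in pairs was 24.5 points smaller for H3K4me1 than for H3K4me3 (exact permutation test over 13 antibodies, adjusted p = 0.0117). With a core of 500 bases either side the H3K4me1 difference was 0.56 points, and when peaks had to cover at least 0.5 of the core it turned to -3.43 points.

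**Figure D1:**
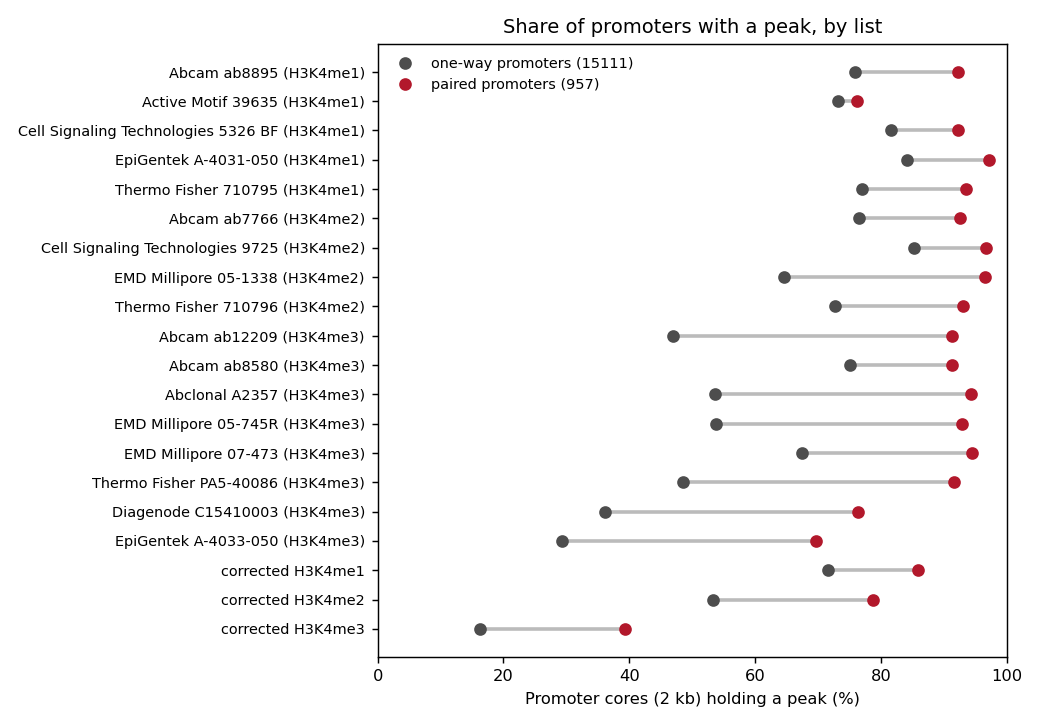
Percent of promoter cores that hold a peak (x axis, 0 to 100%) in each of the 17 antibody lists and the 3 corrected lists (y axis), for 957 pairs and 15111 one-way promoters. Pairs lie to the right of one-way promoters in every list shown, with the longest bars among the H3K4me3 lists.

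Counted by promoter, 873 pairs (91.2%, Wilson 95% interval 89.3 to 92.9%) held a peak in at least 5 of the 8 H3K4me3 lists, against 48.3% of one-way promoters and a background of 54% over all coding promoters. All 8 lists marked 648 pairs (67.7%, background 32.2%), and all 17 H3K4 lists marked 549 (57.4%, background 29.2%, one-way 24.8%). Exactly 6 of the 8 lists marked 141 pairs (14.7%, one-way 11.8%), and 23 pairs were marked in none (2.40%, background 14.6%). In 0 of the 17 H3K4 lists stood 11 pairs (1.15%, background 6.53%). At least 3 of 5 H3K4me1 lists marked 94.8% of pairs (background 82.7%), and at least 3 of 4 H3K4me2 lists marked 94.5% (background 75.1%). The share of pairs in at least 5 of 8 lists was above the one-way share on 22 of 22 chromosomes. Over the 6 lists without AR17, 864 pairs (90.3%) held a peak in at least 5, against 47.1% of one-way promoters (background 52.7%), and 836 (87.4%) held one in all 6, against 43.9% (background 49.6%). These intervals cover counting error only. A pair enters these counts when a peak lies at either of its genes, so the excess over one-way promoters and the background is not an excess per gene.

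CpG content moved with this result. Among CpG-rich promoters the H3K4me3 share was 88.7% in pairs and 66.1% in one-way promoters, a difference of 22.5 points (adjusted p = 0.0195, exact permutation test) where all promoters gave 36.4. One-way genes whose upstream 1 kb holds the TSS of a lncRNA on the other strand, 1671 in number, lay between, at 70.9% ± 12.7 (n = 8). Against them the excess of the pairs was 16.8 points, again with pairs higher in 8 of 8 lists and an adjusted p of 0.0195 (exact permutation test). Without the AR17 libraries the mean difference was 35.1 points and higher in 6 of 6 lists, but 6 antibodies gave an adjusted p of 0.0694.

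The second comparison asked where the peaks lie, from 3 kb on one side of the promoter to 3 kb on the other. At pairs H3K4me3 peaks lay over the centre more often than on the flanks, and H3K4me1 peaks on the flanks more often than over the centre. The midpoint of a pair lay under an H3K4me3 peak in 83.2% ± 10.5 of pairs (SD, n = 8) and the one-way TSS in 45.5% ± 13.1. The difference of 37.7 points held in 8 of 8 lists (exact permutation test, adjusted p = 0.0195). It was smaller among CpG-rich promoters, at 24.4 points (84.7% and 60.4%). Against one-way promoters with a divergent lncRNA it was 17.6 points.

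For H3K4me1 the order was the reverse. The midpoint was under a peak in 37.0%, 55.6%, 19.5%, 37.2% and 14.7% of pairs in the order of antibodies given for the share. One-way TSSs were under a peak in 48.7%, 64.3%, 41.2%, 49.8% and 34.3%. Pairs were lower in 5 of 5 lists by a mean of 14.9 points, with an exact permutation p of 0.0625, the smallest that 5 antibodies allow. The difference between H3K4me1 and H3K4me3 in this measure was 52.6 points (adjusted p = 0.00518, exact permutation test), the widest of the 4 contrasts in percentage points. The midpoint is not a TSS, but the 2 TSSs of a pair themselves had nearly the same H3K4me1 occupancy, 34.5% ± 17.2 against 32.8% ± 16.3 at the midpoint. Against one-way promoters with a divergent lncRNA, at 36.03% ± 16.0, the H3K4me1 difference at the centre shrank to -3.22 points. Among CpG-rich promoters it was -9.70 points.

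H3K4me2 took a middle course, with 74.3% ± 18.5 of midpoints and 60.9% ± 16.8 of one-way TSSs under a peak (n = 4, higher in pairs in 4 of 4 lists). At 1 kb from the midpoint the H3K4me2 value in pairs was 90.2% to the left and 90.5% to the right on the plus strand, an orientation that is arbitrary for a pair. The midpoint lay below the mean of these sides by 37.7 points with EMD Millipore 05-1338, by 16.8 with Thermo Fisher 710796, by 6.84 with Cell Signaling Technologies 9725 and by 3.03 with Abcam ab7766. The mean dip was 16.1 points, and 8.88 without EMD Millipore 05-1338. Among promoters with a peak in at least 5 of 8 H3K4me3 lists, the midpoint was instead less often under an H3K4me2 peak in pairs, by a mean of 6.05 points. H3K4me3 itself chose that subset, so its own difference at the centre there is not given.

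**Figure D2:**
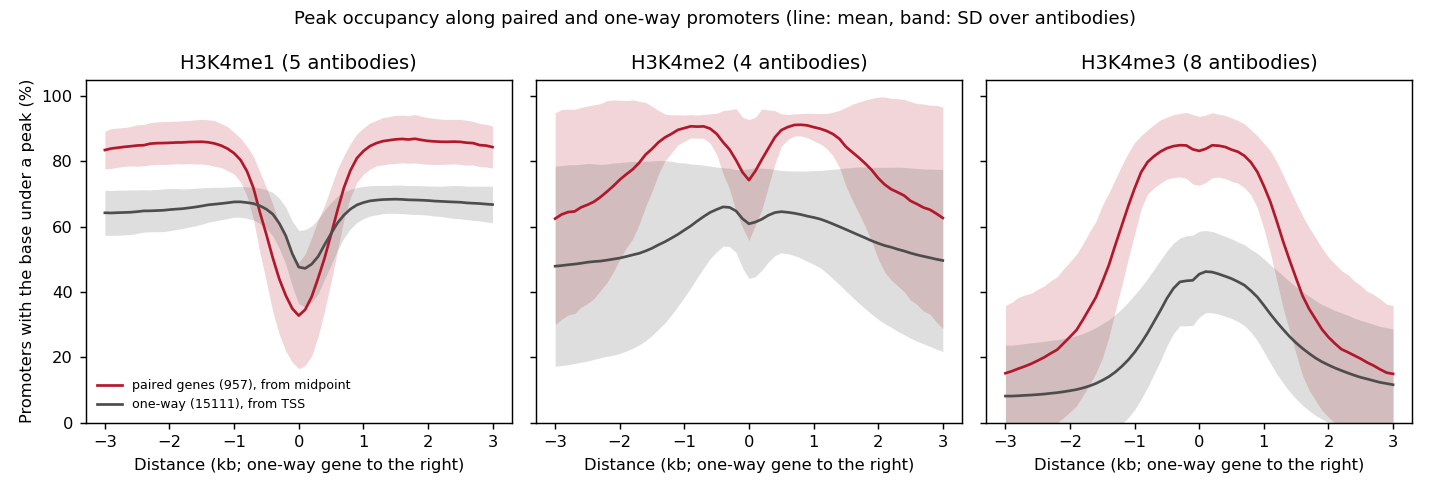
Percent of promoters whose base at a given distance (x axis, kb; one-way genes run to the right) lies under a peak (y axis), as the mean (line) and SD (band) over antibodies, for pairs centred on the midpoint and one-way promoters centred on the TSS. In pairs H3K4me1 dips to 32.8% at the midpoint and H3K4me3 stays at 83.2%, while the one-way H3K4me3 curve is higher on the gene side than upstream.

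The third comparison asked whether a gene's upstream side is marked when a partner gene lies there. One-way promoters were lopsided in H3K4me3. The base 1 kb inside the gene was under a peak in 35.95% ± 14.2 and the base 1 kb upstream in 21.6% ± 17.6. In pairs the base 1 kb beyond the partner's TSS was under an H3K4me3 peak in 65.1% ± 16.9 (n = 8; lowest 46.1%, median 64.0%, highest 89.1%). Pairs exceeded the upstream side of one-way promoters by 29.6 to 55.2 points in 8 of 8 lists, with a mean of 43.5 (exact permutation test, adjusted p = 0.0195).

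The pairs' occupancy was also 29.1 points above the gene side of one-way promoters, in 8 of 8 lists, a value that was not among the tests. Among promoters marked in at least 5 of 8 H3K4me3 lists the other side was covered in 70.1% of pairs and 38.6% of one-way promoters. The gene side of one-way promoters in this subset was covered in 67.6%, only 2.55 points below the pairs. These values are a description, since the same lists chose the promoters. One-way promoters with a divergent lncRNA reached 43.6% ± 17.6 upstream, against 18.9% ± 17.7 in those without, and pairs exceeded the former by 21.5 points (adjusted p = 0.0195, exact permutation test).

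H3K4me2 covered the other side in 89.5% ± 4.82 of pairs and 59.0% ± 20.6 of one-way promoters (4 of 4 lists), and H3K4me1 in 85.3% ± 6.92 and 67.6% ± 4.69 (5 of 5 lists). The H3K4me1 difference was 0.84 points among promoters marked in at least 5 of 8 H3K4me3 lists. The H3K4me1 excess was 25.8 points smaller than that of H3K4me3 (adjusted p = 0.00518, exact permutation test). The one-way levels of 67.6% and 21.6% left the marks unequal room for an excess, and the part of this in the contrast was not tested. This contrast depended on distance, since at 2 kb the H3K4me3 excess was 13.7 points and the contrast was 6.90 points the other way (adjusted p = 0.200, exact permutation test).

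**Figure D3:**
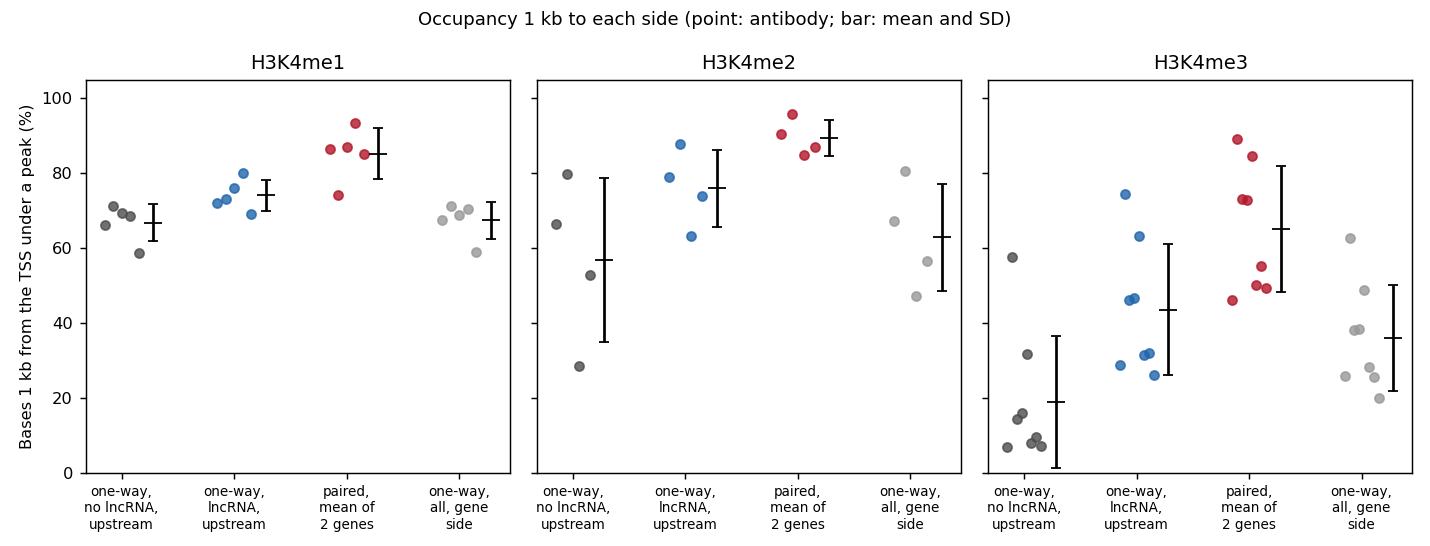
Percent of bases 1 kb from the TSS that lie under a peak (y axis), 1 point per antibody with the mean and SD beside it, for the upstream side of one-way promoters without and with a divergent lncRNA, for pairs (mean over both genes) and for the gene side of all one-way promoters. In H3K4me3 the means are 18.9%, 43.6%, 65.1% and 35.95%.

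Most pairs were spanned by a single H3K4me3 peak. One peak covered both TSSs in 81.1% ± 11.0 of pairs (n = 8; 60.6 to 89.9%) and in 86.7% ± 3.19 without AR17 (n = 6), separate peaks covered the TSSs in 1.33% ± 0.425, and a peak covered only 1 of the TSSs in 4.39% ± 2.12. H3K4me1 lists had 1 peak over both TSSs in 25.6% ± 16.2 of pairs and no peak over either in 57.7% ± 17.7. Both flanks, at 1 kb, were under H3K4me3 peaks in 53.3% ± 21.4 of pairs, against 18.0% ± 15.8 of one-way promoters, and 1 flank alone in 23.5% ± 10.2 of pairs. The flanks of a pair were under H3K4me1 peaks on both sides in 79.7% ± 6.45 of pairs.

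H3K4me3 peaks at pairs were also wider. The widest peak touching a core had a median width of 2271 to 6673 bases over the 8 lists in pairs and of 1655 to 4585 bases in one-way promoters. The mean ratio was 1.38-fold (log2 0.46 ± 0.07, higher in 8 of 8 lists, exact permutation test, adjusted p = 0.0195). A peak over both TSSs of a pair enters as 1 width that includes the bases between them. The part of this in the ratio was not tested. The ratios for H3K4me1 and H3K4me2 were 1.15-fold (log2 0.20 ± 0.18, 4 of 5 lists) and 1.16-fold (log2 0.22 ± 0.08, 4 of 4 lists), and among CpG-rich promoters the H3K4me1 log2 ratio was 0.0099. The H3K4me1 ratio was smaller than that of H3K4me3 by 0.26 on the log2 scale (adjusted p = 0.00518, exact permutation test), but not when only the peak over the central base was measured (difference 0.08, adjusted p = 0.474). Among promoters marked in at least 5 of 8 H3K4me3 lists, H3K4me1 and H3K4me2 peaks were narrower at pairs (log2 ratios of -0.16 and -0.16), as they were against one-way promoters with a divergent lncRNA (-0.057 and -0.091). The H3K4me3 ratio against the lncRNA promoters was 0.15.

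Without the AR17 libraries the H3K4me3 differences were 37.4 points at the centre, 44.1 points on the other side and 0.48 in log2 width, each with an adjusted p of 0.0694 in the exact permutation test of 6 antibodies. The contrasts of H3K4me1 with H3K4me3 were then -23.2 points for the share, -52.2 for the centre, -26.4 for the other side and -0.28 for log2 width, with adjusted p from 0.0216 to 0.0433 in the exact permutation test. With the 8-cycle libraries alone they were 35.2 points, 43.2 points and 0.46, and the 5 antibodies left could not pass (adjusted p = 0.104, exact permutation test). The 4 contrasts of H3K4me1 with H3K4me3 then also missed the threshold, with adjusted p from 0.0529 to 0.104 in the exact permutation test.

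The authors deposited a signal value with each peak in 14 of the 17 lists, read here as an apparent modification density and ranked within its own list. The highest value at a pair had a median percentile 13.5 ± 8.31 points above that of one-way promoters for H3K4me3 (5 lists with values, 5 of 5 higher). At a pair the highest value is taken over a core with both TSSs, and the part of this was not tested. The difference was 2.53 ± 1.65 points for H3K4me1 and 1.08 ± 0.24 for H3K4me2. It moved with list length: the H3K4me3 lists of 13765 and 14878 peaks gave 21.6 and 21.3 points and that of 230275 peaks gave 1.92. One-way promoters already had a median percentile of 79.2 to 96.4 in the H3K4me1 lists and 89.7 to 97.6 in the H3K4me2 lists, so the size of the difference is not compared between marks. None of these tests could pass with 4 or 5 lists (exact permutation p of 0.0625, 0.0625 and 0.125). Among promoters marked in at least 5 of 8 H3K4me3 lists the H3K4me2 difference turned to -0.075 points, and with 8-cycle libraries alone the H3K4me3 difference was 5.79 points. In the authors' scale the mean of the H3K4me3 medians was 45.8 ± 5.30 in pairs and 36.4 ± 4.59 in one-way promoters.

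The spacing classes were compared within each antibody, without a test. The 184 pairs within 100 bases had an H3K4me3 peak in 87.1% ± 9.13 and the 168 pairs 501 to 1000 bases apart in 87.1% ± 11.6, higher in 5 of 8 lists and lower in 3. H3K4me1 at the midpoint was 34.5%, 28.9%, 29.7%, 29.0% and 44.05% from the closest to the widest of 5 spacing classes. The widest class was higher than each of the other 4 in 5 of 5 lists, by a mean of 9.59 to 15.1 points. It also had the lowest share of CpG-rich promoters, 87.5% against 92.5% to 97.2% in the other classes. The part of CpG content in the H3K4me1 values was not tested. For H3K4me3 at the midpoint the widest minus the closest class was -6.22 points on average, with the widest class lower in 7 of 8 lists. The median H3K4me3 peak width averaged 2907 ± 1240 bases in the closest class, 3669 ± 1712 at 301 to 500 bases and 3450 ± 1524 at 501 to 1000 bases. Pairs 501 to 1000 bases apart had wider peaks than the closest class in 8 of 8 lists. They had narrower peaks than the class of 301 to 500 bases in 8 of 8 lists.

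**Figure D4:**
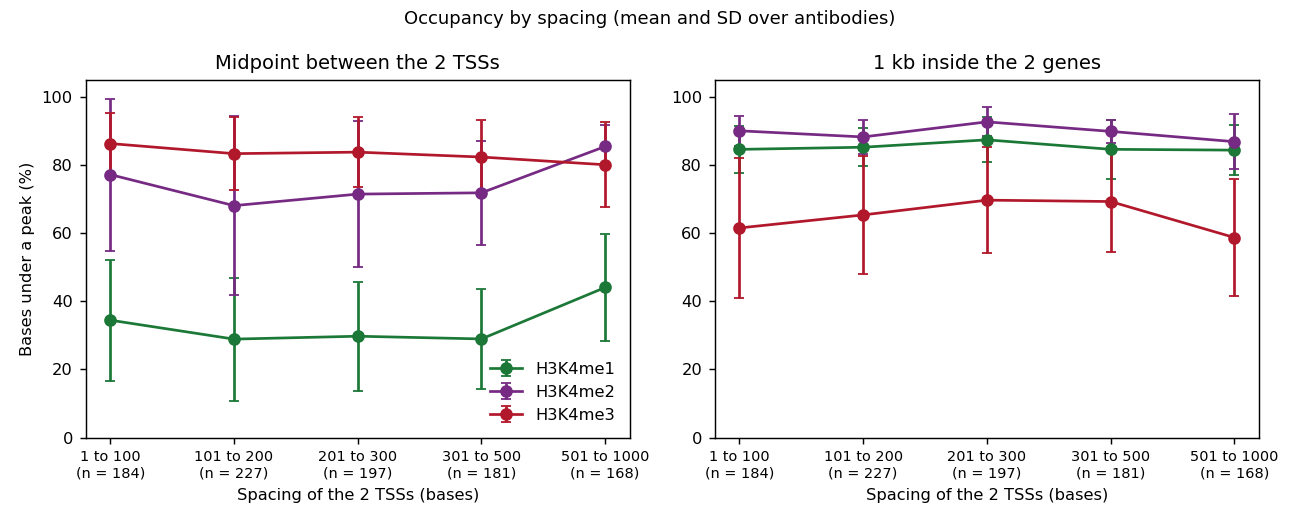
Percent of bases under a peak (y axis) at the midpoint (left) and 1 kb inside the paired genes (right) for 5 classes of TSS spacing in bases (x axis), as mean and SD over antibodies of each target. Midpoint H3K4me1 lies between 28.9% and 44.05% in all classes and H3K4me3 between 80.1% and 86.3%.

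The corrected lists allow the 3 degrees of methylation to be read with the authors' removal of off-target capture, although each is a single list without a replicate. Each was computed from several libraries of this series, per the deposited notes, so the corrected lists are not independent of the antibody lists. A corrected H3K4me3 peak touched 39.3% of pairs and 16.2% of one-way promoters (background 18.9%), a corrected H3K4me2 peak 78.8% and 53.4% (background 57.3%), and a corrected H3K4me1 peak 85.9% and 71.6% (background 73.8%). For each of the 3 lists the pair share was above the one-way share on 21 of 22 chromosomes. Corrected peaks of all 3 marks met at 357 pairs (37.3%) and at 14.3% of one-way promoters. A further 353 pairs (36.9%) had H3K4me1 and H3K4me2 without H3K4me3, close to the 35.8% of one-way promoters. None of the 3 was present at 90 pairs (9.40%) and at 24.9% of one-way promoters. Pairs with corrected H3K4me3 alone numbered 1 (0.10%, one-way 0.32%). With a core of 500 bases either side the corrected H3K4me1 excess of 14.3 points was 1.22, and with peaks over 0.5 of the core it turned to -3.13.

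Where a corrected peak was present, the median of the authors' value was 49.8 in pairs and 43.4 in one-way promoters for H3K4me3, 31.4 and 26.7 for H3K4me2, and 22.9 and 20.2 for H3K4me1. The median width of corrected H3K4me3 peaks was 2295 bases in pairs and 1613 bases in one-way promoters. At the midpoint, corrected H3K4me1 covered 32.3% of pairs and 45.4% of one-way TSSs. This is the same order as in the antibody lists, which are not independent of it. The corrected lists hold 0.912% to 1.31% of their peaks on chromosomes 13 and 14, and corrected H3K4me3 touched 3.39% of the 59 pairs there.

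Of 35 well-studied head-to-head pairs looked up by name, 15 met the rule, and 13 of these had an H3K4me3 peak in at least 5 of 8 lists, close to the 91.2% of all pairs (background 54%). The DNA damage genes come first. NPAT/ATM (TSSs 429 bases apart on chromosome 11; NPAT activates histone genes and ATM is the kinase that signals double-strand breaks) was marked in all 17 lists, with H3K4me3 peaks 2215 to 13373 bases wide (median 5082). PRKDC/MCM4, the DNA-dependent protein kinase beside a subunit of the replicative helicase, lacked a peak only in the EpiGentek A-4033-050 list. ZAR1L/BRCA2 had a peak in 6 of 8 H3K4me3 lists, 3 of 4 H3K4me2 lists and 2 of 5 H3K4me1 lists. Its missing H3K4me3 lists were the 2 of the AR17 input. The pair lies on chromosome 13, where Active Motif 39635 marked 0 of 14 pairs, Abcam ab8895 5, Cell Signaling Technologies 5326 BF and Abcam ab7766 6 each, and the AR17 lists 3 and 2, so the low counts cannot be read as missing marks. On the BRCA2 side, 1 kb in, 6 lists had H3K4me3, and on the ZAR1L side (an oocyte gene) 1 did.

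Chaperone and protein synthesis pairs were marked widely. HSPD1/HSPE1, the mitochondrial chaperonin and its co-chaperonin, had H3K4me3 in 7 of 8 lists over 4011 to 10481 bases and H3K4me1 in 3 of 5 lists. TCP1/MRPL18, a cytosolic chaperonin subunit beside a mitochondrial ribosomal protein, had H3K4me3 in 8 of 8 lists over 3375 to 14187 bases. HARS1/HARS2, whose sequence is printed above, was marked in all 17 lists with narrow H3K4me3 peaks of 1566 to 4869 bases (median 2019). The authors' H3K4me3 values there were 47.3 to 56.8 over the 5 lists that give them. SARS2/MRPS12 was marked in all 17 lists with H3K4me3 peaks of 2271 to 7453 bases.

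Among metabolic and other pairs, PPAT/PAICS, 2 enzymes of purine synthesis, had H3K4me3 in 8 of 8 lists and H3K4me1 in 3 of 5. SURF1/SURF2 was marked in 15 lists and missed the same 2 AR17 lists as ZAR1L/BRCA2. POLR3K/SNRNP25 (an RNA polymerase III subunit and a spliceosomal protein), MCM7/AP4M1 (a replicative helicase subunit and an adaptor protein), ZNF565/ZNF146 (zinc finger genes) and PDCD10/SERPINI1 were each marked in all 17 lists. PDCD10/SERPINI1 had the widest H3K4me3 peaks of the 15, with a median of 9152 bases. SERPINI1 encodes a neuronal serpin and PDCD10 a widely expressed signalling protein.

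The type IV collagen pairs stood at the other end. COL4A4/COL4A3, which encode chains of the kidney glomerular basement membrane, had no peak in any of the 17 lists, and COL4A1/COL4A2 had peaks in 2 H3K4me2 lists only. COL4A1/COL4A2 is also on chromosome 13, with the limit given for ZAR1L/BRCA2 in the lists named there, whereas COL4A4/COL4A3 is on chromosome 2. Abclonal A2357 had no peak at COL4A1/COL4A2, although it marked 12 of the 14 pairs on chromosome 13. Abcam ab12209 and Thermo Fisher PA5-40086, with 11 of 14 each, had no peak at this pair either. Both are CpG-rich, with 73.4% and 73.3% GC over the central 1 kb. COL4A1/COL4A2 had an H3K27me3 peak and COL4A4/COL4A3 did not. With a core of 2.5 kb, 1 H3K4me3 list reached COL4A1/COL4A2 and 0 reached COL4A4/COL4A3.

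**Figure D5:**
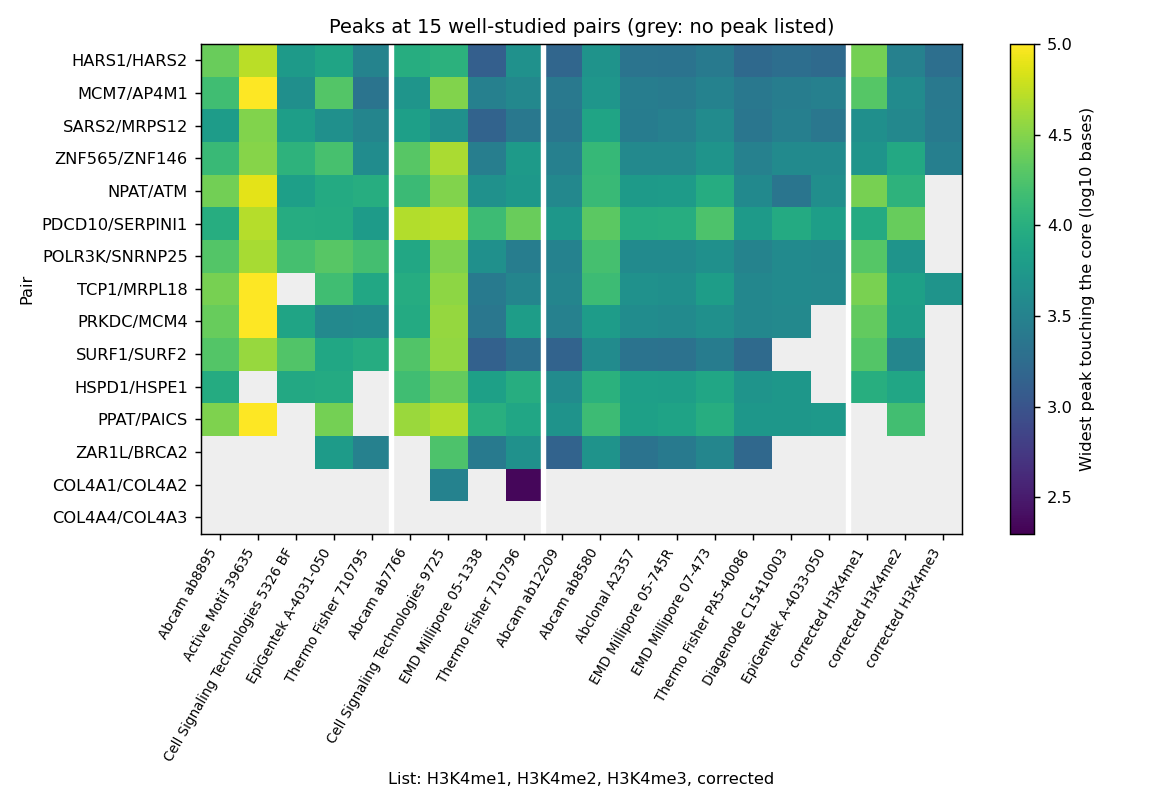
Width of the widest peak touching the core (colour, log10 bases; grey where no peak is listed) for the 15 well-studied pairs (rows) in the 5 H3K4me1, 4 H3K4me2, 8 H3K4me3 and 3 corrected lists (columns). The 2 collagen pairs at the bottom are grey in nearly all lists and ZAR1L/BRCA2 is grey in 6 of the 17 antibody lists.

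The gene lists show which functions the pairs carry. Of 72 histone genes measured, 26 (36.1%) stood in pairs, as did 29 of 87 DNA repair genes (33.3%), 26 of 78 mitochondrial ribosomal proteins (33.3%), 10 of 33 annotated genes of RNA polymerase subunits (30.3%, 32 symbols, since POLR2J3 is annotated at 2 genes) and 27 of 93 respiratory chain genes (29.0%). The share was 28.6% of 28 chaperone genes, 22.9% of 35 tRNA synthetases, 20.0% of 15 nucleotide synthesis genes, 18.1% of 83 replication and cell cycle genes and 14.9% of 47 proteasome genes. Collagens (9.52% of 42) and zinc finger genes (7.30% of 466) lay at or below the 9.64% of all coding genes.

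Read against the 91.2% of all pairs marked in at least 5 of 8 H3K4me3 lists, most groups lay close to it. The counts were 27 of 27 pairs with a mitochondrial ribosomal protein, 27 of 27 with a respiratory chain gene, 10 of 10 with a polymerase subunit, 8 of 8 with a chaperone, 8 of 8 with a proteasome gene, 7 of 7 with a tRNA synthetase and 2 of 2 with a nucleotide synthesis gene. They were 27 of 30 for DNA repair, 14 of 15 for replication and the cell cycle, 13 of 14 for histones, 25 of 29 for zinc fingers and 0 of 2 for collagens. One-way genes reached 50 of 51 for DNA repair, 58 of 63 for replication and the cell cycle, 39 of 42 for mitochondrial ribosomal proteins, 39 of 49 for the respiratory chain, 24 of 24 for tRNA synthetases, 16 of 17 for chaperones, 13 of 14 for polymerase subunits, 29 of 33 for the proteasome and 8 of 10 for nucleotide synthesis. They reached 303 of 389 for zinc fingers, 9 of 15 for histones and 6 of 37 for collagens. Over the 6 lists without AR17, the pairs with a peak in at least 5 were 26 of 30 for DNA repair, 25 of 27 for the respiratory chain and 12 of 14 for histones, and the counts of the other 9 lists were the same.

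Corrected H3K4me3 was present at 7 of 7 tRNA synthetase pairs, 19 of 27 mitochondrial ribosomal pairs, 14 of 30 DNA repair pairs, 7 of 15 replication pairs, 4 of 8 chaperone and 4 of 8 proteasome pairs, 1 of 2 nucleotide synthesis pairs, 11 of 29 zinc finger pairs, 5 of 14 histone pairs, 3 of 10 polymerase pairs, 6 of 27 respiratory chain pairs and 0 of 2 collagen pairs. The share over all pairs was 39.3%, and differences between the groups were not tested. The respiratory pair TATDN1/NDUFB9, the second a complex I subunit, was marked in all 17 lists. NDUFS1/EEF1B2, a complex I subunit beside a translation elongation factor, had H3K4me3 in 5 of 8 lists and neither H3K4me1 nor H3K4me2 in any list. Of the DNA repair pairs, AK6/RAD17, the second a checkpoint clamp loader, was marked in all 17 lists and XRCC3/ZFYVE21, the first a recombination gene, in 6 lists with 0 for H3K4me3 (chromosome 14).

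For each remaining list, 1 pair from each end is described. In most lists several pairs tie at 17 lists (21 of 27 for mitochondrial ribosomal proteins, 6 of 7 for tRNA synthetases), and the tie was broken by the corrected lists and then by name. ATPSCKMT/CCT5 (CCT5 is a cytosolic chaperonin subunit), CEP76/PSMG2 (PSMG2 helps to assemble the proteasome), MBLAC2/POLR3G (an RNA polymerase III subunit), EARS2/UBFD1 (mitochondrial glutamyl-tRNA synthetase), APBA3/MRPL54 (a mitochondrial ribosomal protein) and ARHGAP1/ZNF408 were each marked in all 17 lists. At the lower end, KARS1/TERF2IP (lysyl-tRNA synthetase beside a telomere protein) still had 16 lists and PSME2 with its unnamed partner, a proteasome activator gene, had 14. RNF115/POLR3C had H3K4me3 in 7 of 8 lists and H3K4me2 in 0 of 4. POLE/PXMP2, the first the catalytic subunit of DNA polymerase epsilon, had H3K4me3 in 3 of 8 lists, at 77.7% GC. SKA3/MRPL57 on chromosome 13 had 5 of 8 H3K4me3 and 1 of 4 H3K4me2 lists, and ZNF829/ZNF568 had 3 of each kind and 1 H3K4me1 list.

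In the histone clusters 13 of the 14 pairs join 2 histone genes. H2AC17/H2BC17 was marked in all 17 lists with a corrected H3K4me3 peak of 4837 bases. H2AC14/H2BC14, 245 bases apart on chromosome 6, had 2 of 8 H3K4me3 lists, 3 of 4 H3K4me2 lists and 5 of 5 H3K4me1 lists. Histone genes are close copies of one another, and whether reads were split between them was not tested.

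The corrected H3K4me3 value ranked the pairs from 82.3 down to 5.96. The highest belonged to XAB2/PET100 (a splicing and repair factor and a cytochrome c oxidase assembly factor), followed by TXNL4B/DHX38 with 77.8 (2 splicing proteins), MRPL27/EME1 with 76.7 (a mitochondrial ribosomal protein and a nuclease subunit) and CEP89/FAAP24 with 75.7 (a centrosomal protein and a Fanconi anaemia protein). XAB2 enters a second pair at the same place with a gene known by Ensembl ID only. The lowest were PRAC1/PRAC2 at 5.96, OR11A1/OR2H1 at 8.14 (olfactory receptors), OSBPL10/ZNF860 at 9.71, PEX11A/WDR93 at 10.0 and DYDC1/DYDC2 at 11.3. All 5 had H3K4me1 in 5 of 5 lists and H3K4me3 in 1 to 3 of 8.

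The widest corrected H3K4me3 peak at a pair covered 7816 bases at GART/SON, a purine synthesis enzyme and a splicing protein with TSSs 921 bases apart. H2AC7/H2BC7 followed with 6918 bases, a gene known by Ensembl ID only beside RBM33 with 6853, and LRRC41/UQCRH, the second a complex III subunit, with 5554.

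Not all pairs were marked evenly. Counting the H3K4me3 lists that cover the base 1 kb inside each gene, 359 pairs had equal counts on both sides, the median difference was 1 list, and 73 pairs differed by 6 or more. In EBNA1BP2/CFAP57 (TSSs 40 bases apart) the side of EBNA1BP2, a ribosome biogenesis factor, was covered in 8 lists and that of CFAP57, a ciliary protein, in 0. NOL9/TAS1R1 had 8 lists on the side of NOL9 (ribosomal RNA processing) and 0 on that of TAS1R1 (a taste receptor). MOB3A/IZUMO4 had 8 and 0, where IZUMO4 belongs to a family of sperm proteins, and ANKRD27/RGS9BP had 7 and 0, where RGS9BP anchors a retinal signalling regulator. In ATP6V1G2/NFKBIL1, which has 2 other coding TSSs within 5 kb, the left side had 1 list and the right side 8. These 5 were chosen for the largest difference, so the counts are a description.

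The other marks gave less. An H3K27me3 peak touched 69.1% of pairs and 74.7% of one-way promoters (background 73.2%). The single H3K9me3 list touched 99.7% of pairs and 98.9% of one-way promoters (background 99%), so it separates no promoters.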

How the data were processed

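Peak lists from K562 were used as the authors deposited them. Reads were handled with Bowtie2, SAMtools, MACS2 and bedtools on GRCh38 (hg38), per the submitters' processing notes, and versions and calling settings were not given in the sources used here. One list was made per antibody. In 14 antibody lists and the 3 corrected lists the authors deposited a signal value per peak. No header names it, it is read as an apparent modification density, and 5 values exceed 100, so it was used within a list only. Depth is unknown, and p-values measure the spread between antibodies, not cultures. The other 6 of 25 samples were not analysed here.

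Pairs and one-way promoters were built from GENCODE release 44. The measures (share, centre, other side, width, value) were taken per list, and pair minus one-way differences were tested by two-sided exact sign-flip permutation over antibodies of a target, or exact permutation between H3K4me1 and H3K4me3, with Benjamini-Hochberg adjustment over 20 tests and a threshold of 0.05. The adjusted p passed in 8 tests, the unadjusted p in 9. The scripts were tested on simulated peaks. Python 3.11.15, numpy 2.4.6, pandas 2.3.3, scipy 1.17.1 and matplotlib 3.10.9 were used.

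Named pairs were all well-studied pairs found, for each gene list the pair in the most and the one in the fewest lists, the 5 highest and 5 lowest corrected H3K4me3 values, the 5 widest corrected H3K4me3 peaks and the 5 largest differences between sides. Not every pair so chosen is described. Some items are not reported here. The members and lists were chosen with earlier results of these data known. Alternatives changed the core, overlap, peak threshold, chromosomes, comparison group, TSS, input, cycles and antibodies.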

Additional observations from a re-analysis of the deposited data

Results flagged for a closer look

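One antibody lay apart from its group. In the H3K4me1 lists the pair minus one-way difference in the median percentile of the authors' value was 5.44 points with Active Motif 39635 and 1.43 to 2.16 points with the other 4 antibodies. Its list is also the shortest of the 5, with 38965 peaks. It was the only antibody to stand out among 15 groups of 4 or more, where chance alone marks about 1 in 20.

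For 4 measures the pair minus one-way difference was unequal between H3K4me1 and H3K4me3 antibodies by an exact permutation test. By exact permutation, H3K4me1 minus H3K4me3 was -24.5 points for the share of marked pairs (adjusted p = 0.0117), -52.6 points for the midpoint, -25.8 points for the other side and -0.26 on the log2 scale for peak width (adjusted p = 0.00518 each). The one-way levels lay at 51.3% for H3K4me3 and 78.3% for H3K4me1 in the share, and at 21.6% and 67.6% on the other side. The part of these starting levels in the contrasts was not tested.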

How the results depend on the processing

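Of the 20 tests, 11 have too few lists to pass, and 7 of their 351 alternative values turned. Of 285 alternative values of the other 9 tests, 263 kept their direction and side of the threshold, 17 lost the call, 4 gained one and 1 turned. Requiring peaks over 0.5 of the core turned the H3K4me1 share to -3.43 points and the corrected H3K4me1 share to -3.13. The contrast of the other side was 6.90 at 2 kb. The width contrast was -0.082 with the peak over the central base. Among promoters marked in at least 5 of 8 H3K4me3 lists (chosen after seeing the data), H3K4me2 at the centre was -6.05, its value -0.075, and the H3K4me1 and H3K4me2 widths -0.16 and -0.16. Against one-way promoters with a divergent lncRNA (also chosen after seeing the data) those widths were -0.057 and -0.091. With fewer antibodies the smallest p no longer passes: share, centre, other side and width of H3K4me3 were 44.6, 43.9, 47.4 and 0.38 with peaks above the median value, 35.1, 37.4, 44.1 and 0.48 beside the AR16 input, and 32.6, 35.2, 43.2 and 0.46 with 8 cycles, where the contrasts were -20.7, -50.04, -25.5 and -0.26. The value contrast, -10.9 (adjusted p = 0.0529, exact permutation test), passed at -11.5 in CpG-rich promoters, -12.5 in marked ones (chosen by the same lists), -8.34 against lncRNA promoters and without EMD Millipore 07-473. Leaving out each antibody it ran from -13.8 to -8.89. The high one-way percentiles of the H3K4me1 lists apply here too, so the value contrast is not read as a difference between marks. Corrected shares, 14.3 (H3K4me1), 25.4 (H3K4me2) and 23.1 (H3K4me3) points, moved for H3K4me1 to 1.22 with a 500-base core, 18.1 above the median value, 16.9 at 20 kb, 9.97 in CpG-rich promoters and 9.35 against lncRNA promoters. For H3K4me2 they moved to 19.8 with 2.5 kb, 30.1 at 0.5 overlap, 28.1, 17.0 and 11.3, and for H3K4me3 to 18.7, 19.5 with the TSS at the gene's end and 14.2. File names carry tags, of which AR16-5 alone holds both H3K4me1 (2 lists) and H3K4me3 (1). Within it the contrasts, without a test and chosen after seeing the data, were -27.2, -56.7, -33.2 and -0.15 for share, centre, other side and width. The 5 H3K4me3 lists of another tag have no H3K4me1 list beside them. No paired analysis was possible because the labels give no replicate numbers shared between groups.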

Other observations

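Of the 23 pairs without H3K4me3 in any list, 6 are duplicated genes, FAM72A/SRGAP2, FAM72B/SRGAP2C, SRGAP2B/FAM72D and 3 pairs of BOLA2, BOLA2-SMG1P6 or BOLA2B with SLX1A or SLX1B. They had no peak in any of the 17 lists, and near-identical copies cannot be told apart by short reads, so these are uncertain. Other pairs in none of the 17 lists were PLCZ1/CAPZA3 (sperm genes), SMC1B/RIBC2 (SMC1B is a meiotic cohesin), CCDC122/LACC1 (on thinly covered chromosome 13), CHDH/IL17RB and COL4A4/COL4A3, for 11 in all. In contrast, DDX51/NOC4L and MRM2/NUDT1 were marked in 9 lists and TST/MPST in 8, all with H3K4me1 and H3K4me2 and no H3K4me3. These were chosen after their values were seen.

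The share of pairs with a peak in at least 5 of 8 H3K4me3 lists was 89.7%, 92.6%, 92.8%, 92.2% and 90.1% in 5 classes of rising GC content below 75%, and 73.2% in the 41 pairs at 75% or more. At 75% or more and at 60 to 65% GC the share in at least 3 of 5 H3K4me1 lists was 92.7% and 93.2%. One-way CpG-rich promoters had H3K4me3 in 53.1% and 71.4% in these 2 classes. The part of GC content in the calls was not tested.

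H3K27me3 peaks were counted by the number of H3K4me3 lists. Among the 648 pairs in all 8 H3K4me3 lists 79.8% had an H3K27me3 peak, against 34.8% of the 23 pairs in none, 52.5% of the 61 in 1 to 4 lists and 46.2% of the 225 in 5 to 7. One-way promoters had 42.1% in none, 84.3% in 1 to 4, 67.9% in 5 to 7 and 87.6% in all 8 lists. The H3K27me3 peaks are broad, with a median width of 20653 bases. This single list carries the same name tag, AR17-2, as Diagenode C15410003, an H3K4me3 list that marked fewer pairs. It also put 0.730% of its peaks on chromosomes 13 and 14. The part of the shared tag and of these chromosomes in the split was not tested.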
